A study of Mus musculus with 6 samples.

Results

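The 10 genes described here include those of the 5 subunits of the transcription factor NF-kB (Nfkb1, Nfkb2, Rela, Relb and Rel). The other 5 (Nfkbia, Nfkbib, Nfkbie, Tnfaip3 and Bcl3) are grouped here as its feedback inhibitors. All 10 genes were taken by gene symbol from a table of 27482 symbols and were found there. All 10 passed the low-count filter that left 14663 genes for testing. The table holds 6 RNA-seq libraries, 3 labelled AAV9-hFNDC4 (genotype given as FNDC4 overexpression) and 3 labelled AAV9-CTRL (genotype given as control). AAV9 is an adeno-associated virus serotype used to carry genes into the heart. Every mouse, controls included, received an AAV9 vector and ischemia/reperfusion (I/R), in which blood flow to part of the heart is stopped and restored, and the material was taken 24 h later. The series title names male mice, while the sources used here do not give strain, age, vector promoter or the interval between vector and surgery. Since Fndc4 itself was not analysed here, the overexpression was not checked.

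NF-kB subunits pair up and wait in the cytoplasm, held by IkB proteins. Signals from TNF, IL-1 or Toll-like receptors activate the IkB kinase, which marks IkB for destruction and lets the dimers enter the nucleus. Several of the genes switched on there encode NF-kB's own brakes, above all IkB-alpha (Nfkbia), IkB-epsilon (Nfkbie) and the ubiquitin-editing enzyme A20 (Tnfaip3), so their RNA is widely used as a readout of recent activity. A slower, alternative route processes the Nfkb2 product and releases Relb dimers. In the heart, the pathway is known for driving inflammatory genes after reperfusion.

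Feedback of this kind runs through NF-kB binding sites near the start of a gene, so a few promoters are shown. Of the 10 genes, 8 had a promoter window in RefSeq's GRCm38.p6 table, covering 250 bases before the start site and 50 after it. The windows were searched on both strands for the kB decamer consensus of NF-kB binding sites, and 6 of the 8 genes held at least 1 match, against 9.55% of 27025 genes in the table. The 250 bases upstream of the start of Nfkbie (chr17:45555450-45555699, plus strand) and Nfkbia (chr12:55492648-55492897, minus strand), the IkB genes that passed the test in opposite directions, are printed 5′ to 3′ on the gene's strand with the match in capitals.
Nfkbie: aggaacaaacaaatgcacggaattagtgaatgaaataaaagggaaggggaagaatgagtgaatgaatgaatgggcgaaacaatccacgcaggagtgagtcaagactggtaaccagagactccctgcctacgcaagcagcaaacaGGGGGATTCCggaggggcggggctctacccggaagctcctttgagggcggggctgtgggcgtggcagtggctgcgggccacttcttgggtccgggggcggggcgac
Nfkbia: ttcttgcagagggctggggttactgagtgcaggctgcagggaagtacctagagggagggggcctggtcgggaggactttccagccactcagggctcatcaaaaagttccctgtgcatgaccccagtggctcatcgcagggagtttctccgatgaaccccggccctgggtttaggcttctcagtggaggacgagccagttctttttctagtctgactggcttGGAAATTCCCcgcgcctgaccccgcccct
The match began 106 bases before the start site in Nfkbie and 29 bases before it in Nfkbia. Shorter stretches of 30 bases show matches in 4 further members, Nfkb2 (chr19:46304688-46304717, plus strand), Rel (chr11:23771042-23771071, minus strand), Tnfaip3 (chr10:19015403-19015432, minus strand) and Bcl3 (chr7:19822734-19822763, minus strand), again with the match in capitals. In Nfkb2 and Rel, 2 overlapping matches run together.
Nfkb2: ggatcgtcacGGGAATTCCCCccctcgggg
Rel: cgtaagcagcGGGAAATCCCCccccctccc
Tnfaip3: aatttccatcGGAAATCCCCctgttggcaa
Bcl3: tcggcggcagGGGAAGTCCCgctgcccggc
Rela and Nfkbib had no match in their windows, and Nfkb1 and Relb had no window in the table. A match describes letters only and does not show that NF-kB binds there.

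The libraries were deep and of similar size, with 32975817 to 36074046 counts each. Fewer genes had a count in AAV9-hFNDC4 (18717 to 18863) than in AAV9-CTRL (20431 to 20870). The part of this difference in the values of genes near 0 was not tested. AAV9-hFNDC4 replicate 2 and AAV9-CTRL replicate 2 stood apart from the other libraries of their groups, with a chi-square per gene of 30.6 to 37.5 against the other AAV9-hFNDC4 libraries (9.08 between those) and 51.1 to 70.8 against the other AAV9-CTRL libraries (27.4 between those). Values without them are given where a call or a direction turns on them. Defining heart muscle transcripts were near or at 0, since of 10 cardiomyocyte markers 1 (Tnnt2) reached 1 CPM (counts scaled by library size) in 3 libraries and Nkx2-5, Myl7 and Pln had no counts. Of 7 leukocyte markers, 1 (Coro1a) reached that level, and Ptprc averaged 0.091 CPM. Of 8 fibroblast markers, 4 did so, among them Col1a2 at 1311 CPM, while Dcn, Lum, Postn and Tcf21 did not. The sum of all 8 fibroblast markers was 2685 to 3399 CPM in AAV9-hFNDC4 against 1709 to 2119 CPM in AAV9-CTRL. The part of this difference in the results was not tested. The tissue label is therefore not borne out by these markers, and groups are named by their vector labels. The labels do not state that each library is a different animal, and p-values therefore reflect library-to-library spread that could be technical.

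The comparison asks whether the vector for FNDC4 went with a different NF-kB gene set after I/R. In the AAV9-hFNDC4 libraries, Nfkbie was 1.67-fold higher, while Nfkbia and Rela were lower by 22.8% and 19.6% relative to AAV9-CTRL. The other 7 members did not pass the test. The 3 of 10 called (1 higher, 2 lower) stood against 47.1% of all 14663 tested genes, of which 22.1% were called higher and 25.0% lower (quasi-likelihood test in edgeR, with Benjamini-Hochberg adjustment over all genes). The groups did not overlap in the same 3 members, against 56.6% of all genes (27.1% higher and 29.5% lower). The median log2 fold change of the 10 members was -0.18, against 0.01 for all tested genes. The count of lower members was 0 without AAV9-hFNDC4 replicate 1 or 3, 1 without AAV9-CTRL replicate 1 or 3, and 4 without AAV9-hFNDC4 replicate 2.

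**Figure D1:**
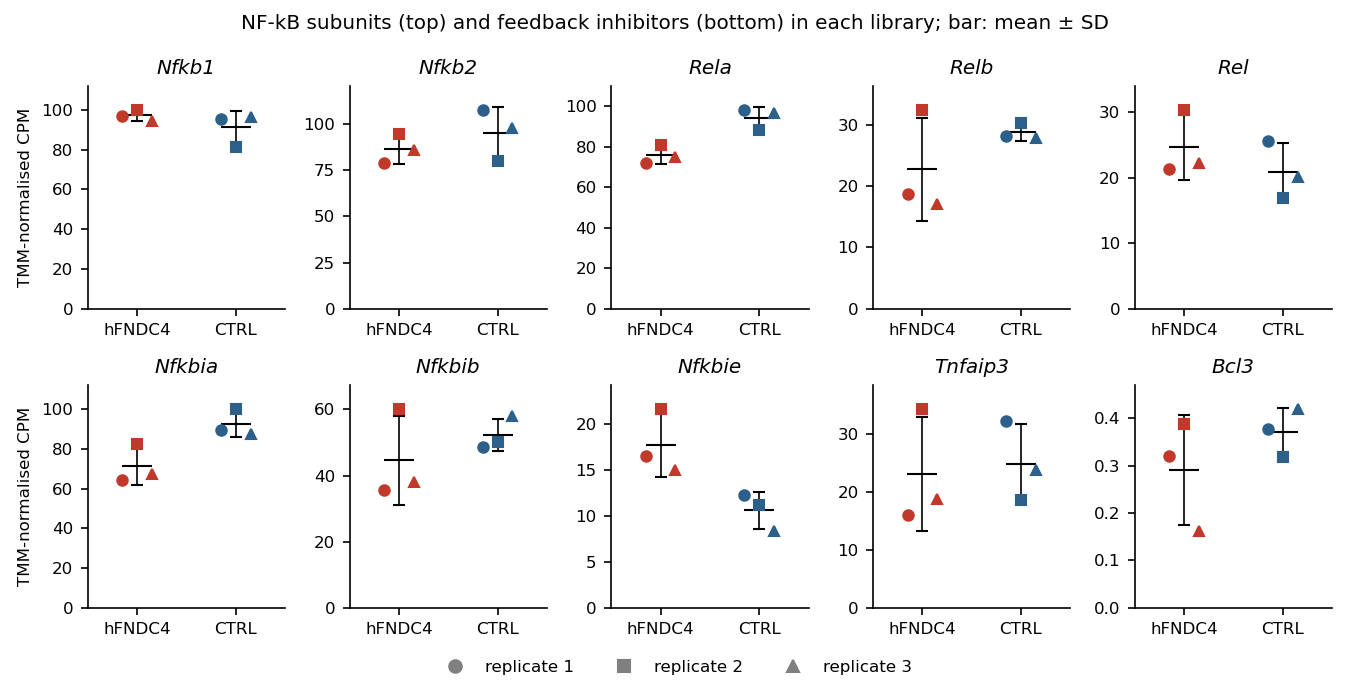
TMM-normalised CPM (counts scaled by library size and edgeR's TMM factors) of each member in each library, with the subunits in the upper row and the feedback inhibitors in the lower row. Symbols mark replicates, and black bars give the mean ± SD (n = 3). The AAV9-hFNDC4 points lie above all AAV9-CTRL points for Nfkbie and below them for Rela and Nfkbia, and replicate 2 is the highest AAV9-hFNDC4 library in every panel.

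Rela encodes p65, the subunit that carries the main transactivation domain of the canonical dimer (chromosome 19, 5637442 to 5648134, GRCm38.p6). It stood at 72.1, 80.6 and 74.7 CPM in AAV9-hFNDC4 replicates 1, 2 and 3, against 98.1, 88.1 and 96.5 CPM in AAV9-CTRL replicates 1, 2 and 3. All 3 AAV9-hFNDC4 libraries lay below all 3 AAV9-CTRL libraries, and the gap between the groups was smaller than the range within either group. The log2 fold change was -0.31 (SE 0.10, adjusted p = 0.0248). That call was kept in 7 of 15 other fits, with adjusted p from 0.0107 to 0.3. It was lost without the low-count filter (adjusted p = 0.0519), without AAV9-hFNDC4 replicate 1 (0.119) or 3 (0.1), without AAV9-CTRL replicate 1 (0.0854) or 3 (0.0846), with the replicate block (0.0843), and with the corrections for transcript length (0.0686) and GC content (0.3).

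Nfkb1 encodes the precursor of the subunit that most often pairs with p65 (chromosome 3, 135584655 to 135691969). It stood at 97.1, 99.95 and 94.3 CPM in replicates 1 to 3, against 95.5, 81.3 and 96.5 CPM in AAV9-CTRL. The groups overlapped, with AAV9-CTRL replicate 2 the lowest library. The log2 fold change of 0.09 had a 95% interval from -0.14 to 0.32, that is 0.909-fold to 1.25-fold.

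Nfkb2 encodes the precursor that is processed in the alternative route (chromosome 19, 46300994 to 46312400). It had 79.0, 94.7 and 85.8 CPM in AAV9-hFNDC4 against 107.7, 79.9 and 97.9 CPM in AAV9-CTRL, and the groups overlapped. Its log2 fold change of -0.14 had an interval from -0.42 to 0.14. Of its exon bases, 19.7% are shared with genes on the other strand, among them Psd at 5.995 ± 1.15 against 5.31 ± 0.282 CPM, and without a stated strand setting the reads of that stretch cannot be told apart.

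Relb, the partner released by the alternative route (chromosome 7, 19606217 to 19629438), had 18.7, 32.4 and 17.1 CPM in AAV9-hFNDC4 against 28.2, 30.3 and 27.8 CPM in AAV9-CTRL. AAV9-hFNDC4 replicates 1 and 3 lay below every AAV9-CTRL library and replicate 2 above them all, so the group's coefficient of variation was 37.0%, against 4.74% in AAV9-CTRL. Its log2 fold change of -0.34 (SE 0.21) did not pass (adjusted p = 0.197). Without AAV9-hFNDC4 replicate 2 it was -0.68 and passed (adjusted p = 0.00211), the lowest of 15 other fits, which ran up to 0.563.

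Rel encodes c-Rel, the subunit best known from lymphoid cells (chromosome 11, 23736847 to 23770969). It had 21.3, 30.4 and 22.3 CPM in AAV9-hFNDC4 against 25.6, 16.9 and 20.2 CPM in AAV9-CTRL. The groups overlapped, and the log2 fold change of 0.24 had an interval from -0.15 to 0.63. The summed level of 6 lymphocyte markers was 0.0569 to 0.2 CPM in AAV9-hFNDC4 against 0.879 to 2.67 CPM in AAV9-CTRL, with Cd3d at 0 and 0 of the 6 at 1 CPM in 3 libraries, and its part in the Rel values was not tested. In bulk RNA, fewer cells of a type and less RNA per cell cannot be told apart.

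Nfkbie, which encodes IkB-epsilon, a slower-acting inhibitor than IkB-alpha (chromosome 17, 45555700 to 45563169), had the largest log2 fold change of the members with all 6 libraries, while without AAV9-hFNDC4 replicate 2 that of Relb was larger in size (-0.68 against 0.57). It had 16.5, 21.7 and 15.02 CPM in AAV9-hFNDC4 against 12.3, 11.2 and 8.38 CPM in AAV9-CTRL. The lowest AAV9-hFNDC4 library was above the highest AAV9-CTRL library. The log2 fold change was 0.74 (SE 0.19, 95% interval 0.33 to 1.15, adjusted p = 0.00711). It passed in all 15 other fits that kept the adjusted threshold, at 0.57 to 0.89, with adjusted p from 9.22e-05 to 0.0392.

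Nfkbia encodes IkB-alpha, the fast inhibitor that NF-kB induces to end its own activity (chromosome 12, 55489409 to 55492647). It moved the other way, at 64.2, 82.3 and 67.5 CPM in AAV9-hFNDC4 against 89.5, 99.96 and 87.6 CPM in AAV9-CTRL. The groups did not overlap, although replicate 2 of AAV9-hFNDC4 came near the lowest AAV9-CTRL library. The log2 fold change was -0.37 (SE 0.12, adjusted p = 0.0235), and the call was kept in 11 of 15 other fits (adjusted p 0.007 to 0.473). It was lost without AAV9-hFNDC4 replicate 1 (0.12) or 3 (0.103) and with the GC correction (0.0531). With the length correction the log2 fold change was -0.11 (adjusted p = 0.473). Nfkbia has a short transcript of 1578 bases, and genes of similar length (1261 to 1812 bases) had a median log2 fold change of -0.28.

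Nfkbib encodes IkB-beta, an inhibitor that NF-kB does not strongly induce (chromosome 7, 28758251 to 28766644). It had 35.7, 60.1 and 38.0 CPM in AAV9-hFNDC4 against 48.7, 50.3 and 57.9 CPM in AAV9-CTRL. As with Relb, replicates 1 and 3 lay below every AAV9-CTRL library and replicate 2 above them all. The log2 fold change of -0.23 (SE 0.18, adjusted p = 0.314) was -0.50 without AAV9-hFNDC4 replicate 2 and then passed (adjusted p = 0.00905), in a range from 0.00905 to 0.834 over its other fits. Ccer2 on the other strand shares 14.8% of its exon bases and had 2 counts over the AAV9-hFNDC4 libraries and 23 over the AAV9-CTRL libraries.

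Tnfaip3 encodes A20, which edits ubiquitin chains upstream of the IkB kinase (chromosome 10, 19000910 to 19015410). It had 16.1, 34.3 and 18.9 CPM in AAV9-hFNDC4 against 32.3, 18.6 and 23.8 CPM in AAV9-CTRL, a spread of 2.13-fold within the AAV9-hFNDC4 libraries. The groups overlapped, and the log2 fold change of -0.11 had an interval from -0.75 to 0.53. It was -0.51 without AAV9-hFNDC4 replicate 2 (adjusted p = 0.073), and its sign turned to 0.10, 0.02 and 0.14 without AAV9-hFNDC4 replicate 1, AAV9-hFNDC4 replicate 3 and AAV9-CTRL replicate 1. Bcl3, a nuclear IkB-like protein that binds dimers of the Nfkb1 and Nfkb2 products (chromosome 7, 19808462 to 19822824), had 12, 14 and 6 counts in AAV9-hFNDC4 against 13, 10 and 14 in AAV9-CTRL. At this depth a difference in Bcl3 was not detectable, since its interval ran from 0.333-fold to 1.84-fold.

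**Figure D2:**
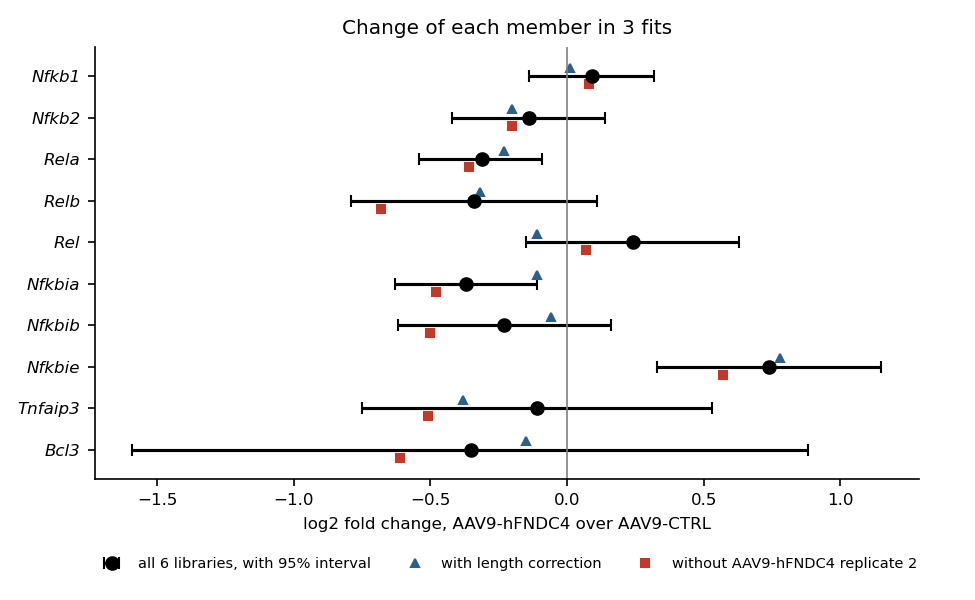
Log2 fold change of AAV9-hFNDC4 over AAV9-CTRL for each member (horizontal axis) in the fit with all 6 libraries (black, with its 95% interval), without AAV9-hFNDC4 replicate 2 (red) and with the length correction (blue). Nfkbie lies at 0.57 or above in all 3 fits, Relb and Nfkbib lie further below 0 without the replicate, and Nfkbia lies at -0.11 with the length correction.

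AAV9-hFNDC4 replicate 2 was the highest library of its group for 10 of 10 members, against 43.7% of all tested genes. Among the AAV9-CTRL libraries, replicate 2 was the lowest for 6 of 10 members, against 37.9% of all genes. The coefficients of variation of Nfkbib (30.2%) and Tnfaip3 (42.6%) in AAV9-hFNDC4 stood against a median of 9.18% over the 12397 genes with a mean of at least 1 CPM, while Nfkb1 (2.90%) and Rela (5.71%) were tighter than that median.

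Levels of different genes were compared per kilobase of the longest annotated transcript. With that length Nfkbia was the most abundant member, at 45.2 ± 6.10 CPM per kilobase in AAV9-hFNDC4 against 58.5 ± 4.22 in AAV9-CTRL, and Rela led the subunits at 27.9 ± 1.59 against 34.7 ± 1.99. Nfkb1 (23.4 ± 0.678 against 22.0 ± 2.05) and Nfkb2 (22.5 ± 2.05 against 24.8 ± 3.66) followed and did not differ from each other beyond their spread. In AAV9-hFNDC4, Nfkbib came next at 21.6 ± 6.54 against 25.4 ± 2.39, within the spread of Nfkb2. Relb (6.95 ± 2.57 against 8.79 ± 0.417) and Nfkbie (5.90 ± 1.16 against 3.54 ± 0.673) were several times lower. Tnfaip3 (3.72 ± 1.58 against 4.02 ± 1.11) and Rel (3.31 ± 0.666 against 2.80 ± 0.593) lay within each other's spread, and Bcl3 was lowest at 0.157 ± 0.0624 against 0.201 ± 0.0272. In AAV9-CTRL, Nfkbib came before Nfkb2 and Nfkb1, and Tnfaip3 before Nfkbie, each within the spread of the next. The order rests on the transcript length used, since on the median length Rela led at 96.4 in AAV9-hFNDC4 and 120 in AAV9-CTRL, ahead of Nfkbia at 62.6 and 81.0, and Tnfaip3 came before Nfkbie in both groups.

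Of the summed level of the 5 subunits, Rela made up 33.6%, 32.1% and 34.0% in AAV9-hFNDC4 against 36.4%, 38.5% and 37.2% in AAV9-CTRL. Nfkb1 made up 29.6%, 26.1% and 28.2% in AAV9-hFNDC4 against 23.2%, 23.2% and 24.4% in AAV9-CTRL. The groups did not overlap for either gene, with a mean difference of -4.12 percentage points for Rela and 4.34 for Nfkb1. Rel made up 3.91% ± 0.436 against 2.99% ± 0.415 (SD, n = 3 each). With the median transcript length in place of the longest, Rela took 55.2% in AAV9-hFNDC4 and 59.6% in AAV9-CTRL, so the size of its share depends on the transcript while the difference between groups was -4.39 points.

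**Figure D3:**
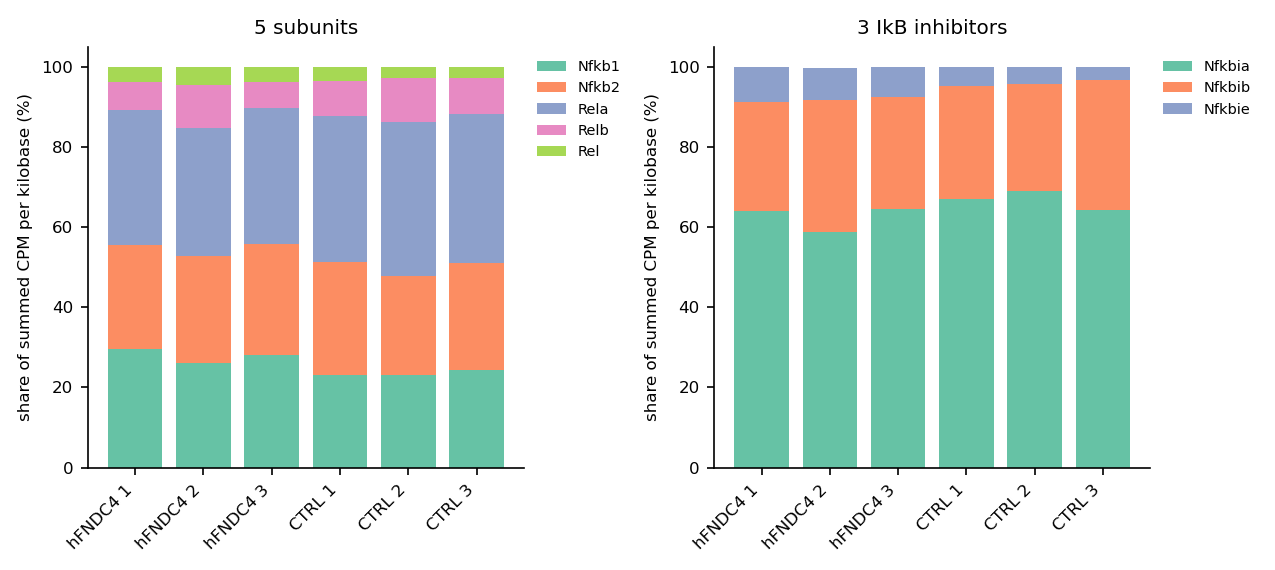
Share of each subunit in the summed CPM per kilobase of the 5 subunits (left) and of each IkB gene in that of the 3 IkB genes (right), in percent, with 1 bar for each library. The Nfkb1 segment is taller and the Rela segment shorter in the AAV9-hFNDC4 bars, and the Nfkbie segment is 7.55% to 8.66% of the IkB sum in AAV9-hFNDC4 against 3.23% to 4.85% in AAV9-CTRL.

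Among the 3 classical IkB genes, Nfkbie contributed 8.66%, 8.14% and 7.55% of the summed level in AAV9-hFNDC4 against 4.85%, 4.08% and 3.23% in AAV9-CTRL. Nfkbia contributed 62.5% ± 3.14 in AAV9-hFNDC4 and 66.9% ± 2.50 in AAV9-CTRL, and Nfkbib 29.4% ± 3.12 and 29.1% ± 3.06 (SD, n = 3 each). Set against Rela, the target that the IkB proteins hold, Nfkbia had a log2 ratio of 0.69 ± 0.11 in AAV9-hFNDC4 and 0.75 ± 0.18 in AAV9-CTRL, and the groups overlapped. With the median transcript length its ratio was below 0 (-0.63 in AAV9-hFNDC4 and -0.57 in AAV9-CTRL). The ratio of Nfkbie to Rela was -2.26 ± 0.21 in AAV9-hFNDC4 against -3.31 ± 0.31 in AAV9-CTRL, and the groups did not overlap. That of Nfkb1 to Rela was -0.25 ± 0.06 against -0.66 ± 0.06. These ratios (given for the longest transcript) and shares are descriptions with no test. Division by length does not remove the trend of the group difference with transcript length. Over all genes, the median log2 fold change ran from -0.48 in the shortest of 10 length classes to 0.44 in the longest. With the length correction, the log2 fold changes of Rel, Nfkb1, Nfkbie and Rela were -0.11, 0.01, 0.78 and -0.23.

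**Figure D4:**
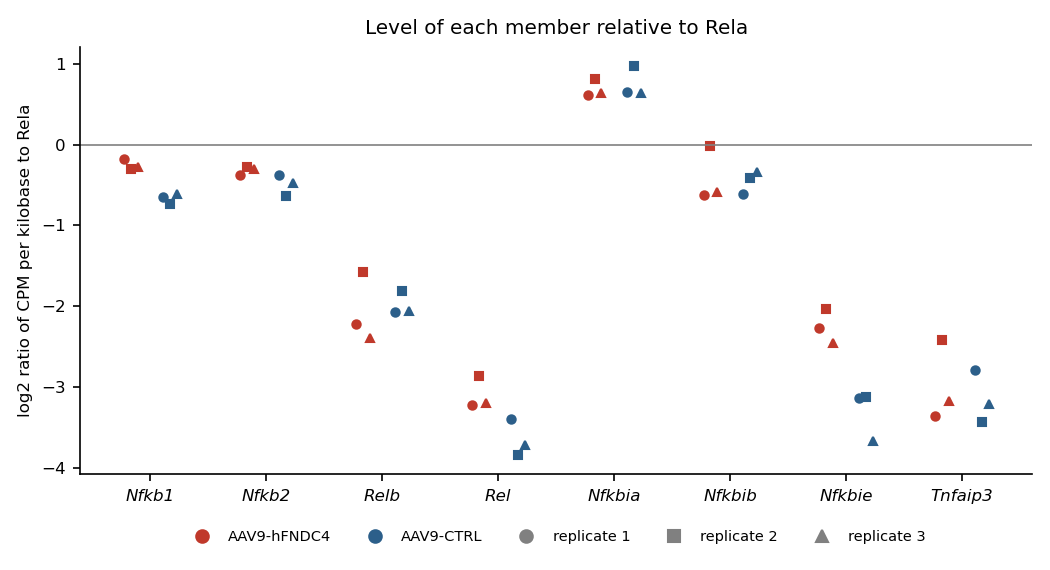
Log2 ratio of the CPM per kilobase of each member to that of Rela (vertical axis) in every library, with AAV9-hFNDC4 in red and AAV9-CTRL in blue; Bcl3, near 0 CPM, is left out. The groups are apart for Nfkb1, Rel and Nfkbie and overlap for the other 5 genes, with no correction for the length trend between groups.

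Around the members, 4 lists of other NF-kB pathway genes were read from the same fit. Of 21 tested further inhibitors and IkB-like genes, 6 were higher and 4 lower, with a median log2 fold change of 0.00. The share called, 47.6%, was at the 47.1% of all genes. Nfkbiz, an atypical nuclear IkB that NF-kB induces, was higher at 62.6, 83.7 and 69.4 CPM in AAV9-hFNDC4 against 41.5, 37.3 and 37.2 CPM in AAV9-CTRL (log2 fold change 0.89, SE 0.13, adjusted p = 0.00021). N4bp1, which restrains inflammatory signalling, was higher by 0.90 (SE 0.11), Pias1, a SUMO ligase, by 0.75 (SE 0.12) and Tnip1, an A20 partner, by 0.49 (SE 0.10). Nfkbid, another nuclear IkB, was lower at 9.81 ± 0.650 CPM in AAV9-hFNDC4 against 18.3 ± 4.07 CPM in AAV9-CTRL. Tax1bp1, also an A20 partner, was lower with -0.71 (SE 0.10), Pdlim2, which promotes degradation of p65, with -0.55 (SE 0.11) and Traf3, a brake on the alternative route, with -0.61 (SE 0.16). Without AAV9-CTRL replicate 2, the log2 fold change of Traf3 was -0.39.

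Of 22 tested receptors and adaptors upstream, 5 were higher and 3 lower, with a median of 0.14. The shares were 22.7% higher and 13.6% lower, against 22.1% and 25.0% of all genes. The receptors of microbial and damage signals Tlr4 and Tlr2 were higher by 0.99 (SE 0.15) and 0.92 (SE 0.15), and the IL-1 receptor Il1r1 by 0.82 (SE 0.13). Tlr4 stood at 85.2, 95.1 and 82.2 CPM in AAV9-hFNDC4 against 54.8, 40.8 and 36.2 CPM in AAV9-CTRL, with no overlap. Traf2, an adaptor of TNF receptors, was higher by 0.41 (SE 0.13) and Irak4, a kinase below the Toll-like and IL-1 receptors, by 0.50 (SE 0.16). Without AAV9-hFNDC4 replicate 2, both lost the call (log2 fold change 0.26, adjusted p = 0.0776 for Traf2 and 0.43, adjusted p = 0.0711 for Irak4). Without AAV9-CTRL replicate 3, both lost it too (adjusted p = 0.0762 and 0.0794), and Irak4 also without AAV9-hFNDC4 replicate 1 (0.0601) and with the replicate block (0.0595). Tnfrsf12a, the TWEAK receptor that feeds the alternative route, was lower at 85.9, 111 and 84.8 CPM in AAV9-hFNDC4 against 308.5, 216 and 313 CPM in AAV9-CTRL (log2 fold change -1.57, SE 0.16). Tradd, the adaptor of the TNF receptor, was lower with -0.52 (SE 0.15) and Ltbr, the lymphotoxin receptor, with -0.35 (SE 0.10). Tradd lost its call without AAV9-hFNDC4 replicate 3 (adjusted p = 0.0545) and with the length correction (0.112). Ltbr lost it without AAV9-hFNDC4 replicate 1 or 3 or AAV9-CTRL replicate 1 or 3 (0.059 to 0.0776), with the replicate block (0.0576), and with the length and GC corrections (0.154 and 0.212). With the length correction Traf2 lost its call too (0.056). The count of lower genes of this list was 1 without AAV9-hFNDC4 replicate 3, and that of higher genes was 3 without AAV9-hFNDC4 replicate 2 or AAV9-CTRL replicate 3.

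Of 20 tested genes of the IkB kinase and of kinases and ubiquitin ligases around it, 2 were higher and 6 lower. Their median log2 fold change was -0.06. Of all genes 22.1% were higher and 25.0% lower. Chuk, the IkB kinase subunit that drives the alternative route, was lower at 53.5, 63.4 and 54.3 CPM in AAV9-hFNDC4 against 101, 82.6 and 97.9 CPM in AAV9-CTRL (log2 fold change -0.72, SE 0.12). Map3k14, the kinase that activates Chuk in that route, was lower with -0.59 (SE 0.14) and Tbk1 with -0.44 (SE 0.10). Ube2n, which builds ubiquitin chains upstream of the IkB kinase, was lower with -0.71 (SE 0.10). The higher genes were Tab2, an adaptor that reads those chains, by 0.60 (SE 0.13) and Csnk2a1, a casein kinase subunit, by 0.34 (SE 0.10). The count of higher genes was 4 without AAV9-CTRL replicate 2 and 1 with the replicate block, where Csnk2a1 lost its call (adjusted p = 0.0509).

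Of 44 listed target genes of NF-kB, 38 were tested, of which 5 were higher, 18 lower and 15 did not pass, together 60.5% against 47.1% of all genes, with a median log2 fold change of -0.74 against 0.01 for all tested genes. Of the 18 lower, Csf2, Csf3 and Sele reached the low-count minimum in no AAV9-hFNDC4 library. They entered the test through AAV9-CTRL alone, so they had to differ. Cxcl2, Mmp9 and Mmp13 were also lower and fell short of the low-count minimum in AAV9-hFNDC4 replicate 1 (2, 3 and 0 counts). These genes too needed the AAV9-CTRL libraries to pass the filter. With a filter of 1 CPM in 3 libraries 14 were lower. That filter selects in the same way, since Csf3, Mmp9 and Plau reached 1 CPM in AAV9-CTRL libraries only. The count and median of this list are therefore a description of the genes that passed. The part of the length trend given above in the median was not tested. Lower targets included short genes such as Gadd45b (1372 exon bases) and Ier2 (1522) and long ones such as Ptgs2 (4453) and Sod2 (5861). The 0.01 of all tested genes is not a length-matched level. With the length correction 5 targets were higher and 18 lower, with Gadd45b at -1.90 and Ier2 at -1.07. Gadd45b, a stress gene that NF-kB induces, was lower at 41.5, 40.4 and 40.7 CPM in AAV9-hFNDC4 against 160, 223 and 199.6 CPM in AAV9-CTRL (log2 fold change -2.25, SE 0.13, adjusted p = 9.65e-07). The early genes Ier2 and Junb, which other pathways also induce, were lower with -1.34 (SE 0.11) and -0.99 (SE 0.10). Csf3, the granulocyte growth factor, had 5, 2 and 4 counts in AAV9-hFNDC4 against 83, 76 and 88 in AAV9-CTRL, and no fold change is given for it.

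The 5 higher targets were Nfkbiz (also on the list of further inhibitors), Nos2, C3, Lcn2 and Csf1. Nos2, inducible nitric oxide synthase, stood at 7.42, 36.2 and 9.12 CPM in AAV9-hFNDC4 against 1.27, 2.45 and 0.509 CPM in AAV9-CTRL. Replicate 2 was again the highest AAV9-hFNDC4 library, and the log2 fold change of 3.64 was 2.56 without it and 4.29 without AAV9-CTRL replicate 2. Nos2 lost its call without the low-count filter (adjusted p = 0.0757, range 0.00016 to 0.0757 over its fits). C3, a complement component, was higher by 0.82 (SE 0.19) and Lcn2, a siderophore-binding protein, by 0.92 (SE 0.25). Csf1, the macrophage growth factor, was higher by 0.45 (SE 0.17) and lost its call without AAV9-hFNDC4 replicate 2 or 3 or AAV9-CTRL replicate 3 (adjusted p = 0.154, 0.0707 and 0.0948), and at 0.27 without AAV9-CTRL replicate 2 (0.1). It also lost it with RLE size factors (0.0516), the replicate block (0.0785) and the length correction (0.0771). The kB consensus lay in the promoter window of 11 of 31 target genes with a window, or 35.5%. Monocytes and macrophages express many of these targets. Of 8 markers of these cells 5 reached 1 CPM in 3 libraries, while Adgre1 and C1qa averaged 0.0283 and 0.0323 CPM. Of those 5, Itgam did so through AAV9-CTRL alone, at 1.691, 1.425 and 1.667 CPM against 0 in every AAV9-hFNDC4 library. The sum of the 8 markers was 25.4 to 31.2 CPM in AAV9-hFNDC4 against 39.5 to 48.2 CPM in AAV9-CTRL. Most of this difference was Cd68, at 11.7, 13.7 and 11.7 CPM in AAV9-hFNDC4 against 27.3, 29.1 and 22.97 CPM in AAV9-CTRL. Cd14 stood at 7.75, 5.46 and 8.57 CPM in AAV9-hFNDC4 against 5.79, 6.28 and 5.42 CPM in AAV9-CTRL, and Lyz2 at 7.30, 5.58 and 9.50 CPM against 4.32, 10.01 and 7.28 CPM, so the groups overlapped for both. The part of these cells in the target values was not tested.

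**Figure D5:**
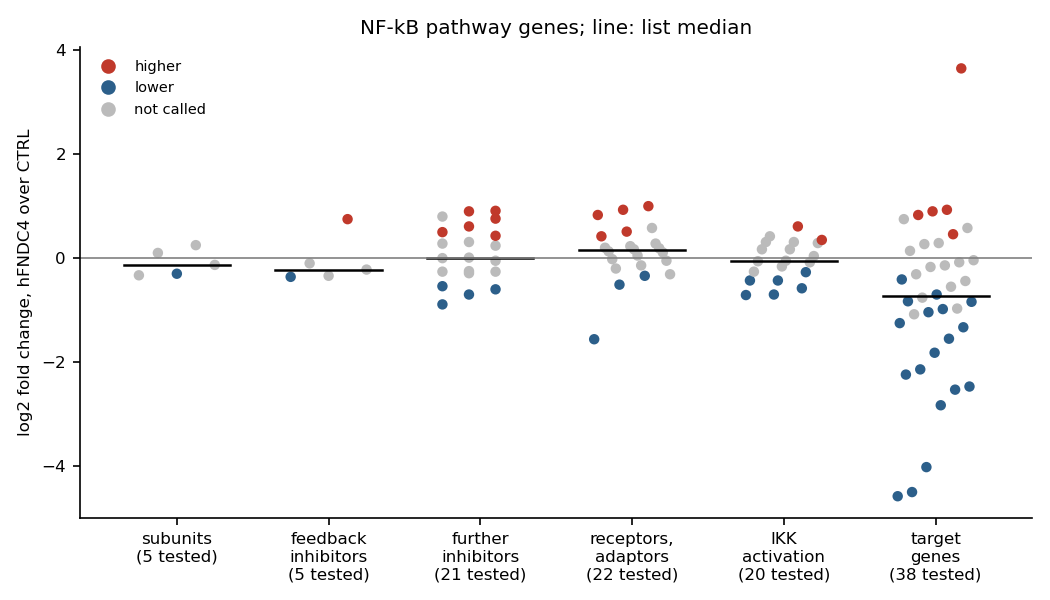
Log2 fold change of AAV9-hFNDC4 over AAV9-CTRL for each tested gene of the 6 lists, coloured by call, with the list median as a line; Sele, at 0 counts in AAV9-hFNDC4, is drawn at its bound of -4.03. The subunits and feedback inhibitors lie between -0.37 and 0.74, while the tested target genes reach 3.64 at the top and have a median of -0.74. Csf2, Csf3 and Sele entered the test through AAV9-CTRL alone, and Cxcl2, Mmp9 and Mmp13 also needed the AAV9-CTRL libraries to pass the filter.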

How the data were processed

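The authors deposited raw read counts per gene symbol, not normalized; fastp, HISAT2, HTSeq, R 3.2.0, DESeq2 and GRCm38 (mm10) appear in the list of tools and builds, per the submitters' processing notes, without parameters or a strand setting. RNA was TRIzol-extracted and libraries made with a VAHTS kit, per the labels' protocols. Counts were tested in R 4.3.3 with edgeR 4.0.16 (filterByExpr, TMM, robust quasi-likelihood F test, Benjamini-Hochberg over 14663 genes, threshold 0.05). SE is the log2 fold change over the root of F, and 95% intervals use the fit's degrees of freedom. Values after ± are SD of 3 libraries. Transcript lengths are GENCODE vM21's (13392 tested genes), promoters and positions RefSeq's. The fit was checked on simulated counts with few changed genes, balanced in direction and without a length trend. That check does not cover data such as these, where 47.1% of genes were called. A fold bound for a gene at 0 uses 3 counts over the group and covers counting error only.

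Members, lists and alternatives were chosen with earlier results of these data known. Named were all members and, per other list and direction, up to 4 called genes with the smallest p, no overlap and at least 1 CPM, and Irak4 and Csf1 to complete counts of 5. Other list genes are named only to state a limit. Alternatives were RLE and upper-quartile scaling, other filters, DESeq2 1.42.0, limma-voom (limma 3.58.1), the replicate block, length and GC offsets (loess, span 0.4), leaving out each library, and a call rule of unadjusted p with a log2 fold change above 1.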

Additional observations from a re-analysis of the deposited data

How the results depend on the processing

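Nfkbie kept its call in 15 of 15 fits at the adjusted threshold. With an unadjusted p and a log2 fold change above 1, 0 members passed higher and 0 lower, and 1117 genes of all passed higher and 1120 lower. The count of lower members, 2, was 1 with no low-count filter, 1 with the replicate block, 0 with the length correction, 0 with the GC correction, and 0 to 4 when a library was left out. Signs turned for members that were not called. Nfkb2 was 0.03 with the GC correction and Rel -0.11 with the length correction. Tnfaip3 ran from -0.51 to 0.14 when a library was left out, lowest without AAV9-hFNDC4 replicate 2. Of the other lists under the unadjusted rule, further inhibitors had 0 higher and 0 lower, receptors and adaptors 0 higher and 1 lower, kinases and ligases 0 higher and 0 lower, and targets 1 higher and 13 lower. When a library was left out, receptors and adaptors had 3 to 5 higher and 1 to 4 lower, and kinases and ligases 2 to 4 higher. Same-numbered libraries did not deviate together (correlations of -0.09, -0.20 and -0.06), so no pairing by number was visible. With 3 libraries a group this check cannot exclude a shared batch. The replicate block gave 1 lower member and 1 higher kinase gene. The median of all genes was -0.15 without the filter. Depth limits Bcl3, with 6 to 14 counts a library, while every other member had at least 280.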
